A study of Mus musculus with 16 samples.

Results

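Genes that mark B and T lymphocytes were followed in whole mouse hearts. The 9 genes are the B-lineage genes Jchain, Cd79a, Cd79b and Ms4a1 and the T-lineage genes Cd4, Cd8a, Cd3e, Cd3g and Lck. They were taken with every probe whose RefSeq accession belongs to one of them, which gave 12 of the 41174 probes on the array. All 9 were among the 20056 genes that could be tested. Hearts came from male mice on a C57BL/6 background, 1 array per heart and 4 hearts in each of 4 groups. All mice carried a floxed allele of the mineralocorticoid receptor gene, Nr3c2. In cardioMRKO mice an αMHC-driven Cre, made in cardiomyocytes, removes the floxed part, and the MRflox controls were their Cre-negative littermates. The 4 groups are these genotypes at ages of 1 month and 2 months. Cells other than cardiomyocytes keep the receptor gene in this model, and what Cre itself does cannot be told apart from what receptor loss does.

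B cells carry an antigen receptor whose signal passes through a pair of partner chains, encoded by Cd79a and Cd79b. Ms4a1 encodes CD20, a surface protein of B cells. Jchain encodes the joining chain that links antibody molecules into polymers and is strongly expressed by antibody-secreting cells. T cells carry a receptor that signals through the CD3 chains, here Cd3e and Cd3g. The coreceptors CD4 and CD8 mark helper and cytotoxic T cells, and the kinase Lck starts the signal inside the cell. In heart muscle lymphocytes are a small resident population, and blood and lymphoid tissue attached to a heart hold the same cells. In RNA of a whole organ, fewer cells of a type and less RNA per cell cannot be told apart.

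Levels are log2 signals relative to the 75th percentile of all probes on the same array, so a level of 0 equals that percentile. A gene was called when its Benjamini-Hochberg adjusted p from limma, a linear model fitted over all genes, was under 0.05. On each array 62.5% to 71.6% of probes read well above background. The heart label held in the marker genes: all 8 cardiomyocyte genes read above background on every array, with a mean level between 6.91 and 7.32. Nr3c2 itself was 0.17 (log2) lower in cardioMRKO at 1 month (limma adjusted p = 0.988), with overlapping ranges of −4.76 to −4.22 and −4.79 to −4.53. At 2 months it was 0.43 lower (limma adjusted p = 0.122), with cardioMRKO at −4.44 to −3.90 and MRflox at −3.89 to −3.44. The sources used here do not say whether its probe lies in the deleted part. The 4 arrays of a group shared a slide that held no other group, so a slide effect cannot be told apart from a group difference.

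One heart stood apart in lymphocyte RNA: replicate 4 of the 2-month cardioMRKO group. Its Cd8a level was −1.28, against −4.95, −5.36 and −5.33 on the other 3 arrays, a gap of 12.7-fold to the nearest. Its Lck level was −0.14, against −3.44, −4.00 and −4.06, a gap of 9.80-fold. Both genes were an order of magnitude brighter in that heart than in its 3 group mates. Cd3g was 4.62-fold, Cd79b 4.31-fold and Ms4a1 3.34-fold above the next array. These 5 of 9 genes were at least 1 (log2) above the next array, as were 1.70% of all genes. Relative to the range of the 4 arrays, the gaps of Cd8a and Lck passed Dixon's 95% critical value, as did the highest array of that group for 3.06% of all genes. The gap was smaller for Cd79a, at 1.57-fold, and for Jchain and Cd3e, at 1.29-fold and 1.09-fold. Cd4 was the exception, at −4.14 within the −4.37 to −3.91 of the other 3.

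The same heart was high in other lymphoid genes. Of 17 other T cell genes tested, 13 stood at least 1 (log2) above the next array of the group, Cd3d by 9.85-fold and the receptor gene Il7r, for the survival factor interleukin 7, by 10.5-fold. Of 17 other B cell genes 11 did so, among them Fcer2a by 8.69-fold. Of 8 genes of lymphocyte homing and survival 5 did so, with Ccr7, the receptor that guides lymphocytes into lymph nodes, 13.7-fold above. Glycam1, a ligand made by the high endothelial vessels of lymph nodes, stood at 2.11 there and at −7.97 to −5.98 on the other 3 arrays. Other cell types stood apart there too: 4 of 6 natural killer, 4 of 6 neutrophil and 2 of 7 MHC class II genes. The neutrophil list mean was −2.20 on that array and −3.48, −3.85 and −5.57 on the others. Of 6 thymus genes and of 6 adipocyte genes 1 each stood apart, and none of 12 macrophage or 8 cardiomyocyte genes did. All 6 fast skeletal muscle genes, a list added after the data were seen, stood at least 1 above, led by the troponin gene Tnnc2 at 136-fold. That list had a mean level of 2.15 on this array and of 2.92 on replicate 3 of the 2-month MRflox group, and of −2.97 to −1.97 on the other 14. Glycam1 stood at −0.27 on that MRflox array. The 5 T-lineage genes had a mean of −3.57 there, inside the range of their group. The means of the other T cell genes (−4.12) and of the homing genes (−1.93) were the highest of the group there. The other 2-month MRflox arrays had −4.85 to −4.22 and −2.72 to −2.19. The mean of the other B cell genes was −3.20 there and higher on replicate 4, at −2.91. The part of tissue attached to the heart in these levels was not tested, and results are given below with and without the array that stood apart.

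**Figure D1:**
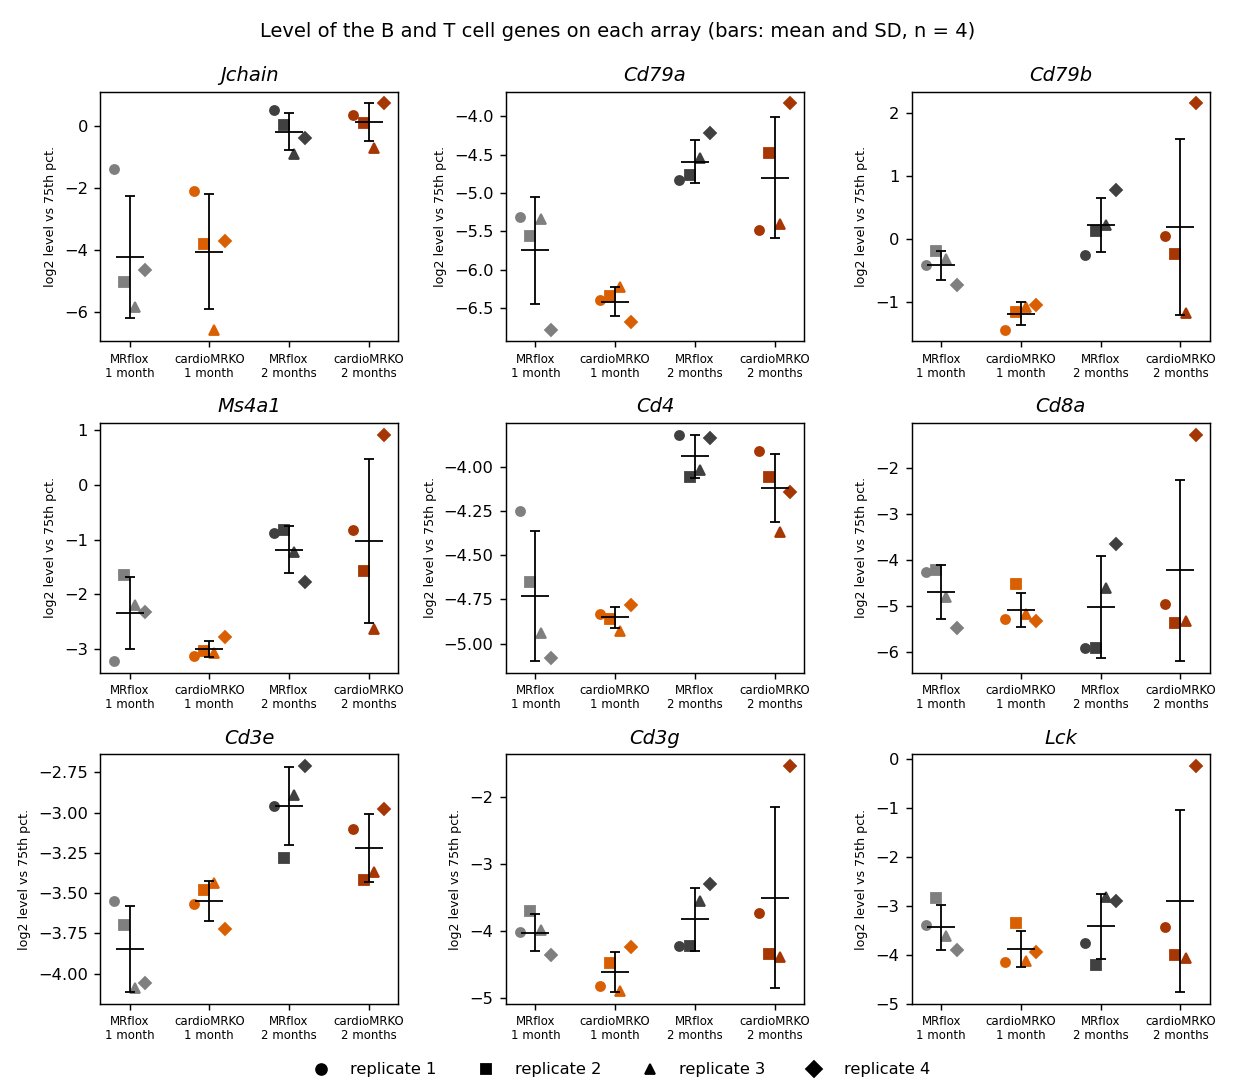
Level of each of the 9 genes (log2 signal relative to the 75th percentile of its array, vertical axis) on every array, by group, with the mean and SD of 4 arrays as bars and the symbol giving the replicate number. Jchain lies between −6.58 and −1.39 on the 1-month arrays and between −0.90 and 0.73 on the 2-month arrays, and the diamond of 2-month cardioMRKO lies far above its group for Cd8a and Lck.

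The largest fold by age among the 9 genes was in Jchain, the joining chain of polymeric antibodies. In MRflox its level was −1.39, −5.04, −5.84 and −4.66 on the 4 arrays at 1 month and 0.51, 0.02, −0.90 and −0.40 at 2 months. In cardioMRKO it was −2.10, −3.80, −6.58 and −3.71 at 1 month and 0.37, 0.10, −0.71 and 0.73 at 2 months. Every 2-month array lay above every 1-month array in both genotypes, and the spread was wide at 1 month, where replicate 1 of each genotype was the highest. The rise was 16.4-fold in MRflox (log2 difference 4.04, SE 0.923, n = 4 per group, limma adjusted p = 0.00621). In cardioMRKO it was 18.0-fold (4.17, SE 0.923, limma adjusted p = 0.0112). Single arrays and the background correction moved these folds by over 1.5 times while the gene stayed called. Without replicate 1 of 1-month MRflox the difference there was 4.98, and in cardioMRKO it was 4.82 without replicate 1 and 3.32 without replicate 3 of the 1-month group. With another background correction, normexp, it was 2.52 in MRflox and 2.76 in cardioMRKO, and with array weights it was 4.78 in MRflox. Group means of the level were −4.23 ± 1.96 and −0.19 ± 0.599 in MRflox and −4.05 ± 1.86 and 0.12 ± 0.613 in cardioMRKO (SD, n = 4). The 1-month probe was dim, with signals of 12.9 to 248 units in MRflox against 303 to 905 at 2 months, and in cardioMRKO it was above background on 3 of 4 arrays. The second Jchain probe, read separately, gave 4.08 and 4.11. At 1 month it was above background on 2 of 4 MRflox and 3 of 4 cardioMRKO arrays, with signals down to 3.38 and 2.57 units. It passed the filter only through the 2-month groups, where it is high, so it adds no support of its own. With the first probe, the cardioMRKO rise was 3.97 without the array that stood apart (limma adjusted p = 0.0305).

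Of the 9 genes, 4 were called in MRflox and 4 in cardioMRKO with age, all upward. They were Jchain, Cd79a and Cd4 in both, with Cd3e in MRflox and Ms4a1 in cardioMRKO. Cd79a passed the background filter only through the 2-month groups, where it is high. It is included in these counts and in the other counts and medians of this paragraph, and adds no support to them. Over all genes 16.7% were called upward with age in MRflox and 5.32% in cardioMRKO, so upward calls were common in MRflox at large. Arrays of the 2 ages did not overlap, with 2 months above, for 4 of the 9 genes in MRflox and 5 in cardioMRKO. Over all genes that held for 19.9% and 9.15%. The median difference of the 9 genes was 0.79 in MRflox and 1.11 in cardioMRKO, beside 0.073 and 0.001 over all genes tested. When the array that stood apart was left out, the cardioMRKO median was 0.72, 5 of the 9 genes were called in MRflox (16.9% of all genes upward) and 3 in cardioMRKO (4.11% upward).

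Of the B cell receptor chains, Cd79a passed the test upward with age in both genotypes. Its probe was above background on all 4 arrays of a group only at 2 months, so it entered the test through the groups where it is high, and its call does not support a rise on its own. In MRflox it went from −5.31, −5.56, −5.34 and −6.79 to −4.83, −4.77, −4.55 and −4.22. In cardioMRKO it went from −6.40, −6.35, −6.23 and −6.68 to −5.48, −4.48, −5.41 and −3.83. The ages did not overlap in either genotype. Replicate 4 of 1-month MRflox was the lowest of its group, with a gap past Dixon's 95% critical value, as held for 3.86% of all genes at that end of that group. The MRflox rise was 2.23-fold (1.16, SE 0.366, limma adjusted p = 0.0346). That call was lost without any one of 4 MRflox arrays, replicate 2 or 4 at 1 month or replicate 3 or 4 at 2 months (limma adjusted p = 0.0538 to 0.107). In cardioMRKO the probe was not well above background on any 1-month array, so the rise is given as at least 2.17-fold. For this each 1-month value was set to the lowest signal above background on its array, or to its own if that was higher. The bound holds for the processed signal with the array that stood apart included, and not for other background corrections. The fitted difference was 1.62, or 1.29 without that array (limma adjusted p = 0.0127 and 0.031). Normexp moved the cardioMRKO difference to 0.26 and ended the call (limma adjusted p = 0.457), and with no filter the MRflox call was lost (limma adjusted p = 0.0527).

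Cd79b, the partner chain, had one of the brighter probes and did not pass the test by age. In MRflox its level was −0.41, −0.20, −0.32 and −0.74 at 1 month and −0.26, 0.12, 0.22 and 0.78 at 2 months. In cardioMRKO it was −1.45, −1.16, −1.09 and −1.05, then 0.04, −0.25, −1.18 and 2.15. The ages overlapped by a single array in each genotype, replicate 1 of MRflox and replicate 3 of cardioMRKO at 2 months. The differences were 0.63 (limma adjusted p = 0.386) and 1.37 (limma adjusted p = 0.0929). The latter was 0.72 without cardioMRKO replicate 4 (limma adjusted p = 0.129). It was 1.83, and called, without replicate 3 (limma adjusted p = 0.0175).

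Ms4a1, which encodes CD20, was called in cardioMRKO, and the call did not hold when arrays were left out. It went from −3.12, −3.04, −3.07 and −2.78 to −0.82, −1.57, −2.64 and 0.92, with no overlap, a 3.93-fold rise (1.98, SE 0.556, limma adjusted p = 0.0368). Leaving out any one of 7 of these 8 arrays ended the call, with limma adjusted p between 0.0506 and 0.0871. The difference was 1.33 without the array that stood apart (limma adjusted p = 0.0613). In MRflox it went from −3.22, −1.65, −2.19 and −2.32 to −0.88, −0.82, −1.23 and −1.77, a difference of 1.17 (limma adjusted p = 0.153) with overlapping arrays. Once the cardioMRKO array that stood apart was out of the shared estimate of the spread, that MRflox difference was called (limma adjusted p = 0.0388). The 2 genotypes were not shown to differ in this gene (difference between them 0.81, limma adjusted p = 0.751).

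The 250 bases upstream of a start site in RefSeq (GRCm38.p6) were searched in the 6 of 9 genes that had an entry. The motifs were the octamer ATGCAAAT, the EBF motif CCCNNGGG, the ETS core GGAAGT, the E-box CAGNTG and TATAAA, each on both strands and none capitalised but the ETS core. The 120 bases next to the start are shown for Jchain and Cd79a, the B-lineage genes called in both genotypes, because both genes were called upward with age. The Jchain window is chr5:88527898-88528017 on the minus strand and the Cd79a window chr7:24897377-24897496 on the plus strand, both written 5′ to 3′ toward the gene.
Jchain: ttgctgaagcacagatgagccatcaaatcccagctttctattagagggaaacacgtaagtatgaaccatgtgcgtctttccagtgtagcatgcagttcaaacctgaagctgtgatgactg
Cd79a: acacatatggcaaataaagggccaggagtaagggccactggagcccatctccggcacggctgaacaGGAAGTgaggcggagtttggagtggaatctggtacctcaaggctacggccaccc
Cd79a holds the ETS core 54 to 49 bases upstream of its start, and Jchain holds no match to it in 250 bases. The core occurs in 19.7% of all 32851 promoter windows, so a match is common. The octamer occurs in 1.6%, the EBF motif in 11.8%, TATAAA in 12.4% and the E-box in 44.8%. None of the 6 genes held the octamer, the EBF motif or TATAAA. Jchain, Cd79a, Cd3g and Lck held an E-box. A match is a run of letters and was not tested as a binding site.

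Among the T cell coreceptors, Cd4 rose with age in both genotypes and Cd8a did not pass the test in either. Cd4 in MRflox went from −4.25, −4.65, −4.94 and −5.08 to −3.82, −4.06, −4.02 and −3.84. In cardioMRKO it went from −4.83, −4.86, −4.93 and −4.78 to −3.91, −4.06, −4.37 and −4.14. All 2-month arrays lay above all 1-month arrays. The rise was 1.73-fold in MRflox (0.79, SE 0.155, limma adjusted p = 0.00241) and 1.66-fold in cardioMRKO (0.73, SE 0.155, limma adjusted p = 0.00895). The latter was 0.74 without the array that stood apart (limma adjusted p = 0.0198). The probe was dim, with signals of 19.7 to 53.0 units, and was printed on 10 spots whose values were averaged. With normexp the cardioMRKO difference was 0.18 and not called (limma adjusted p = 0.415).

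Cd8a in MRflox stood at −4.27, −4.21, −4.80 and −5.48 at 1 month and −5.91, −5.92, −4.60 and −3.66 at 2 months. In cardioMRKO it stood at −5.28, −4.53, −5.18 and −5.33 and then −4.95, −5.36, −5.33 and −1.28. The 2-month MRflox arrays lay on both sides of the 1-month arrays. The differences were −0.33 (95% interval −1.98 to 1.32, limma adjusted p = 0.789) and 0.85 (−0.80 to 2.50, limma adjusted p = 0.555). The cardioMRKO difference was −0.13 without the array that stood apart. A second Cd8a probe gave 0.36 in MRflox, the opposite sign, so no direction is given for this gene. The third Cd8a probe was above background on 1 array in all, again replicate 4 of 2-month cardioMRKO, and was not in the fit.

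The CD3 chains gave unlike results with age in MRflox. Cd3e went from −3.55, −3.70, −4.09 and −4.06 to −2.96, −3.28, −2.89 and −2.71, a 1.86-fold rise with no overlap (0.89, SE 0.154, limma adjusted p = 0.00117). Cd3g went from −4.01, −3.70, −3.98 and −4.36 to −4.22, −4.22, −3.55 and −3.30, a difference of 0.19 (95% interval −0.85 to 1.23, limma adjusted p = 0.805). The intervals of the differences of Cd3e and Cd3g overlap, and the difference between the genes was not tested. In cardioMRKO Cd3e went from −3.57, −3.48, −3.44 and −3.72 to −3.10, −3.42, −3.37 and −2.98. Its 2-month arrays all lay above the 1-month arrays, the nearest at −3.42 and −3.44, and the difference of 0.33 was not called (limma adjusted p = 0.194). Cd3g there went from −4.82, −4.47, −4.89 and −4.24 to −3.73, −4.34, −4.38 and −1.53, a difference of 1.11 (limma adjusted p = 0.171) that was 0.45 without the array that stood apart. Lck stood at −3.39, −2.84, −3.61 and −3.91 in MRflox at 1 month and −3.76, −4.20, −2.82 and −2.91 at 2 months, a difference of 0.02 (95% interval −1.43 to 1.46). In cardioMRKO it went from −4.15, −3.36, −4.12 and −3.95 to −3.44, −4.00, −4.06 and −0.14, a difference of 0.99 (limma adjusted p = 0.404) that was 0.06 without the array that stood apart.

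Cd3e and Cd3g are neighbours on mouse chromosome 9, with Cd3d between them (Cd3g at chr9:44969572-44980431, Cd3d at chr9:44981769-44987052 and Cd3e at chr9:44998735-45009663, GRCm38.p6). Their upstream windows, chr9:45009612-45009731 and chr9:44980432-44980551, both on the minus strand, are shown because the genes lie side by side and Cd3e was called with age in MRflox while Cd3g was not. The Cd3e window ends at a start site inside the extent of the gene.
Cd3e: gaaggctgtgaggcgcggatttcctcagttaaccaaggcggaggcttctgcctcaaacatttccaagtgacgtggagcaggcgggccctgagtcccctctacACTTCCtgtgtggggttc
Cd3g: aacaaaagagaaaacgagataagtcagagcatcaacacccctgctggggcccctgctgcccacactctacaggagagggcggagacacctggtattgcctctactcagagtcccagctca
The capitals mark the ETS core, read on the other strand as ACTTCC, 18 to 13 bases upstream of the Cd3e start. Cd3g holds no match in its 250 bases, and Lck holds one upstream of each of its 2 listed starts.

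**Figure D2:**
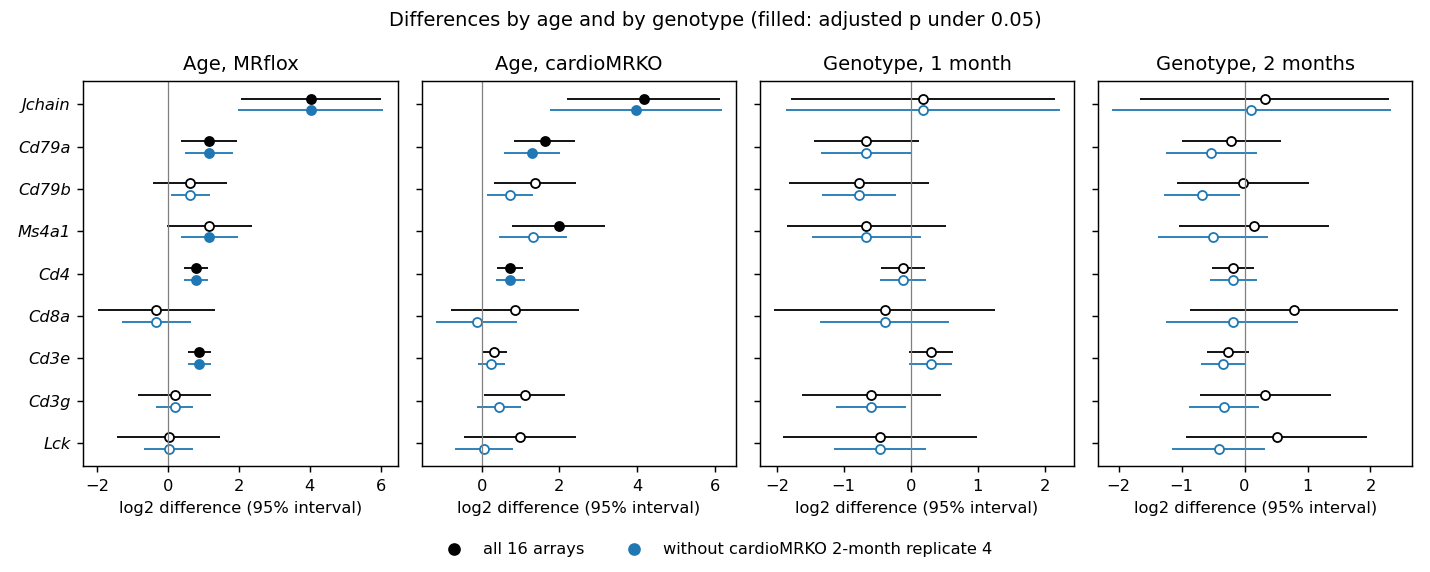
Log2 difference with its 95% interval (horizontal axis) for each gene, by age in each genotype and by genotype at each age, from all 16 arrays (black) and without replicate 4 of 2-month cardioMRKO (blue), with filled points for limma adjusted p under 0.05. Jchain lies near 4 in both age panels, and no point is filled in either genotype panel.

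The second question was whether lymphocyte genes differed between cardioMRKO and MRflox hearts. None of the 9 was called at 1 month or at 2 months by limma, and none had an unadjusted p under 0.05 at either age. Over all genes 0.0947% were called at 1 month and 3.53% at 2 months, while 6.02% and 18.8% had an unadjusted p under 0.05. Without the array that stood apart, 2 of the 9 had an unadjusted p under 0.05 at 1 month (6.37% of all genes) and 1 at 2 months (19.6%), all lower in cardioMRKO. They were Cd79b at 1 month (−0.77, 95% interval −1.32 to −0.22, unadjusted p = 0.01 and adjusted p = 0.56 by limma), Cd3g at 1 month (−0.59, unadjusted p = 0.0285 and adjusted p = 0.7 by limma) and Cd79b at 2 months (−0.68, unadjusted p = 0.0288 and adjusted p = 0.202 by limma). The 9 genes had a median difference of −0.46 at 1 month, beside 0.018 over all genes, and 7 of the 9 were below 0. At 2 months the median was 0.15, beside −0.081 over all genes, with 5 above and 4 below 0. Leaving out the array that stood apart gave a 2-month median of −0.34, with 8 of the 9 below 0 and none called (1.81% of all genes were).

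At 1 month the gene whose groups separated was Cd79b, with all 4 cardioMRKO arrays below all 4 MRflox arrays, the nearest at −1.05 and −0.74. It was 1.71-fold lower (−0.77, SE 0.491, limma adjusted p = 0.938). The exact permutation test of this gene alone gave p = 0.0286, two-sided, the smallest that 4 against 4 arrays allow. Over all genes cardioMRKO lay wholly below MRflox in 3.68%, so the separation of 1 gene in 9 is not read as a result. Cd79a differed by −0.67 (limma adjusted p = 0.904, at least 1.12-fold lower in the processed signal, since no cardioMRKO array was above background). Ms4a1 differed by −0.66 and Cd3g by −0.59 (limma adjusted p = 0.996 and 0.987). Cd8a and Lck differed by −0.39 and −0.46, Cd4 by −0.12, Jchain by 0.18 and Cd3e by 0.30. The intervals were wide: that of Jchain ran from −1.79 to 2.16 and that of Cd8a from −2.04 to 1.26. Without the array that stood apart, which is in the shared estimate of the spread, they ran from −1.86 to 2.23 and from −1.36 to 0.58.

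At 2 months the sign of several genotype differences rested on 1 heart. With all arrays Cd8a was 0.79 higher in cardioMRKO, Lck 0.51, Cd3g 0.33 and Ms4a1 0.15. Without replicate 4 of cardioMRKO these became −0.19, −0.41, −0.33 and −0.50. Cd79b went from −0.03 to −0.68, Cd79a from −0.21 to −0.53 and Cd3e from −0.26 to −0.34. Jchain, at 0.32 and 0.11, kept its sign, as did Cd4 at −0.18 both ways. Limma adjusted p ran from 0.385 to 0.984 with the array and from 0.202 to 0.959 without it. The change in the genotype difference between ages passed the limma test for none of the 9 genes (0.748% of all genes passed). Its lowest adjusted p was 0.325, for Cd3e at −0.56 (unadjusted p = 0.0216 by limma, as was under 0.05 for 11.3% of all genes). Without the array that stood apart it was −0.64 (limma adjusted p = 0.258), and 0.431% of all genes passed.

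Other B cell genes lay higher at 2 months in most cases. Of 20 listed, 17 were tested. With age in MRflox 4 were called upward and 16 lay above 0, with a median of 0.88, beside 16.7% of all genes called upward. They were Mzb1, a chaperone of antibody assembly in plasma cells (0.95, limma adjusted p = 0.00237), the complement receptor gene Cr2 (1.07, 0.00653 by the same test), Cd37 (0.96, 0.0238 by the same test) and Vpreb3 (2.21, 0.0334 by the same test). Cr2 was above background on 2 of 4 arrays in 1-month MRflox and on all 4 of a group only in 2-month MRflox. It entered the test through the group where it is high, so its call does not support a rise on its own. In cardioMRKO 6 were called upward and 16 lay above 0, with a median of 1.15, beside 5.32% of all genes called upward. The leading ones were Mzb1 (1.04, limma adjusted p = 0.00309), the inhibitory receptor gene Cd22 (2.67, 0.00472 by the same test), the follicle-homing receptor gene Cxcr5 (2.22, 0.016 by the same test) and the B cell coactivator gene Pou2af1 (1.87, 0.0168 by the same test). Cd22 was not above background on any 1-month cardioMRKO array, so the size of its difference rests on values at background. It was 1.98 without the array that stood apart (limma adjusted p = 0.000565). Leaving out the array that stood apart gave 11 calls in MRflox and 7 in cardioMRKO, all upward (16.9% and 4.11% of all genes), and a cardioMRKO median of 0.67.

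Few other T cell genes were called with age. Of 24 listed, 17 were tested. In MRflox none was called upward and 1 downward, Themis, a regulator of T cell receptor signalling in the thymus (−1.03, limma adjusted p = 0.00934). The median was 0.23, with 10 above and 7 below 0. In cardioMRKO 1 was called, the adhesion receptor gene Cd2 (1.76, limma adjusted p = 0.0318), and 16 lay above 0, with a median of 0.87 that was 0.18 without the array that stood apart. Over all genes 16.7% were called upward and 5.91% downward with age in MRflox, and 5.32% upward in cardioMRKO. Single calls among 17 genes, Themis downward and Cd2 upward, are near those shares and are not read as a result about T cell genes. Of the thymus genes, Aire, a regulator of self-antigen expression in the thymus, rose in MRflox (2.02, limma adjusted p = 0.0344) and was at 0.86 in cardioMRKO (limma adjusted p = 0.448). Dntt, the terminal transferase of developing lymphocytes, had mean levels of −2.97, −2.79, −2.53 and −2.61 in 1-month MRflox, 1-month cardioMRKO, 2-month MRflox and 2-month cardioMRKO, and was not called by age. Of 6 natural killer cell genes none was called in MRflox and 1 in cardioMRKO, Klrb1c (1.26, limma adjusted p = 0.00266).

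Most genes of antigen presentation to T cells were called upward with age. Of 7 MHC class II genes tested 5 were called in MRflox and 5 in cardioMRKO, beside 16.7% and 5.32% of all genes, with medians of 1.20 and 1.67. Those not called were Ciita (0.78) and H2-Oa (1.20) in MRflox and H2-DMa (0.82) and H2-Oa (1.76) in cardioMRKO. Cd74, the invariant chain that loads with MHC class II, went in MRflox from 1.30, 2.30, 2.30 and 1.81 to 3.38, 3.39, 3.11 and 3.65. In cardioMRKO it went from 1.86, 0.99, 1.39 and 1.04 to 2.87, 3.42, 3.16 and 3.80. Its 2-month arrays lay above its 1-month arrays throughout, by 1.45 in MRflox (limma adjusted p = 0.00138) and 1.99 in cardioMRKO (limma adjusted p = 0.00046). H2-Aa, an MHC class II chain, rose by 1.26 and 1.67 (limma adjusted p = 0.00674 and 0.00285). B cells, dendritic cells and some macrophages all express these genes. Of 12 macrophage genes 1 was called upward in MRflox, Cd14, and 2 downward in cardioMRKO, Mrc1 and C1qc, with medians of −0.06 and −0.24. Over all genes 4.93% were called downward in cardioMRKO.

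Among homing and survival factors, Cxcl13, the chemokine that draws B cells into follicles through Cxcr5, rose with age in both genotypes. In MRflox it went from −0.80, −2.57, −3.37 and −2.37 to −0.47, −0.16, −0.90 and −0.22, with the highest 1-month array inside the 2-month range (1.84, 3.58-fold, limma adjusted p = 0.0437). In cardioMRKO it went from −3.27, −3.41, −5.35 and −3.06 to −0.30, −0.36, −1.78 and 0.82, with no overlap (3.37, 10.3-fold, limma adjusted p = 0.00364). The cardioMRKO difference was 2.96 without the array that stood apart (limma adjusted p = 0.011). Madcam1, an adhesion molecule of vessels in gut lymphoid tissue, was called in MRflox (0.94, limma adjusted p = 0.0334) and was at 0.85 in cardioMRKO (limma adjusted p = 0.0845). The 2 differences were not shown to differ (limma adjusted p = 0.951). The B cell survival factor gene Tnfsf13b was not called in either (0.33 and 0.44).

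Markers of other tissue moved with age on some of the same arrays. The mean level of 6 airway genes on the 1-month MRflox arrays was −5.68, −5.30, −6.16 and 2.93, and at 2 months it was 2.31, 3.87, 2.25 and 5.47. In cardioMRKO it was 2.05, −0.53, −5.88 and −0.92 at 1 month and 2.44, 2.94, 0.19 and 2.68 at 2 months. Of the 6 genes 5 were called upward in MRflox, with a median of 7.14, beside 16.7% of all genes. None was called in cardioMRKO, with a median of 3.24, beside 5.32% called upward. On the 1-month MRflox arrays 3, 4, 3 and 6 of the 6 genes were above background, and all 6 were on every 2-month array. The size of the MRflox median thus rests partly on values at background. Set beside Jchain at 1 month, the arrays of the genotypes differed. In cardioMRKO replicate 1 was the highest and replicate 3 the lowest for both the airway mean and Jchain. In MRflox replicate 4, with the highest airway mean, had Jchain at −4.66, and replicate 1, with an airway mean of −5.68, had Jchain at −1.39. All 6 adipocyte genes lay above 0 with age in both genotypes, with medians of 1.13 and 1.21, and none was called. Their mean level in cardioMRKO was 4.12, 3.48, −0.45 and 3.92 at 1 month and 3.95, 3.55, 3.44 and 4.65 at 2 months. Replicate 3 at 1 month lay far below the rest there, and the other 1-month arrays lay inside the 2-month range or near it. Cardiomyocyte genes had medians of −0.04 and 0.01. The part of airway or fat tissue in the age differences of the lymphocyte genes was not tested.

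**Figure D3:**
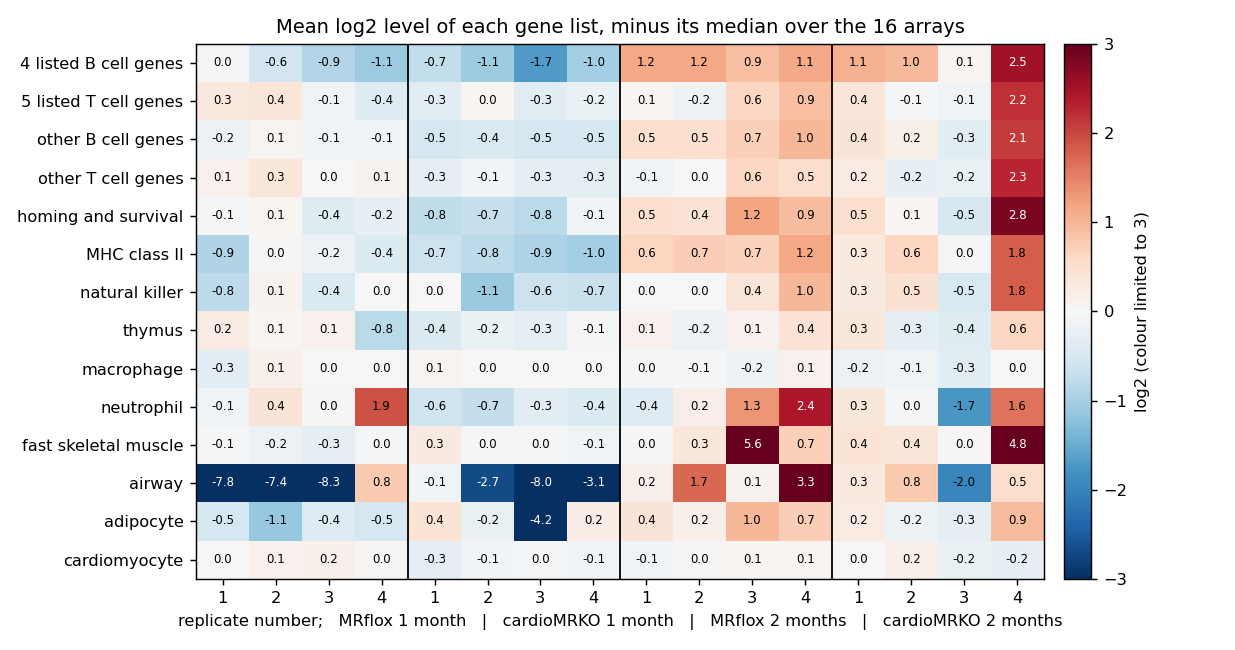
Mean log2 level of each gene list on each array minus the median of that list over the 16 arrays (colour and printed value), with arrays in columns by group and replicate and lists in rows. Replicate 4 of 2-month cardioMRKO is high in the B cell, T cell, homing and fast skeletal muscle rows and not in the macrophage or cardiomyocyte rows, and the airway row is low on several 1-month arrays.

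In the genotype comparisons no gene of these lists was called at 1 month, beside 0.0947% of all genes. All 17 other T cell genes and 15 of 17 other B cell genes lay below 0 there, with medians of −0.40 and −0.46, and all 7 MHC class II genes did, with a median of −0.59. The genes of a list share their arrays, so these counts are a description. The smallest limma adjusted p among the B cell genes was 0.762, for Cd22 at −1.27, which was not above background on any cardioMRKO array at that age. At 2 months Themis was 1.13 higher in cardioMRKO (limma adjusted p = 0.0271) and no other B or T cell gene was called, beside 3.53% of all genes. Leaving out the array that stood apart, Themis was at 1.08 and not called (limma adjusted p = 0.0681). Cd37, a B cell membrane protein, was then 0.84 lower (limma adjusted p = 0.0203), beside 1.81% of all genes called. These single calls are near those shares and are not read as a result about B or T cell genes. The 2-month medians of the other B and T cell genes were then −0.55 and −0.43, in place of −0.02 and 0.22.

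Across the 16 arrays the 9 genes fell into loose company. Lck ran with Cd8a and with Cd3g at a Pearson r of 0.95 each (0.83 each without the array that stood apart). Cd79b ran with Cd3g at 0.93 (0.86) and with Ms4a1 at 0.87 (0.75). Jchain ran most closely with Cd4, at 0.89 both ways, and hardly with Lck, at 0.28 (0.03). Ms4a1 and Cd8a ran at 0.47 with the array that stood apart and −0.20 without it. These values describe 16 arrays in 4 groups that differ by age, and arrays of a group share a slide.

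Among the tested genes with a symbol whose levels ran most like the mean of Cd79a, Cd79b and Ms4a1 were Cxcr5 (r = 0.977), Pou2af1 (0.958), H2-Oa (0.957) and Spib (0.948). Without the array that stood apart these were 0.960, 0.924, 0.923 and 0.913. The genes most like the mean of Cd3e, Cd3g and Lck were Cd5 (0.968), Zap70 (0.966), Cd3d (0.965), Cd6 (0.963) and Il7r (0.946), or 0.891, 0.887, 0.902, 0.876 and 0.824 without it. Each of these 9 genes except H2-Oa is on the lists of other B or T cell genes. H2-Oa, which encodes an MHC class II protein of B cells, is on the MHC class II list. These genes were ranked with all 16 arrays. Ranked without the array that stood apart, Idh3g (0.948), Pnpla5 (0.947) and BC004004 (0.941) came ahead of Pou2af1, H2-Oa and Spib for the B cell mean. For the T cell mean Ecm1 (0.893) came between Cd3d and Cd5. Idh3g, Pnpla5, BC004004 and Ecm1 are not listed lymphocyte genes, so the lymphoid company rests partly on 1 array. Jchain had other company, with Porcn (0.946), Timp4 (0.931), Il17re (0.916), Aox1 (0.916) and Jph3 (0.914), none of them a listed lymphocyte gene. These are likenesses over 16 arrays and carry no test.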

How the data were processed

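Each array file holds, per the file headers, a deposited fluorescence intensity per spot: the processed signal, background-subtracted and detrended within the array by the authors' scanner software (Agilent Feature Extraction 12.0.0.7 in the headers, 9.5 in the submitters' processing notes). The deposited table of values held the same intensity (maximum difference 0). No mean signal column was present, so normexp (offset 50) used the median signals. Levels are log2 of the processed signal minus the 75th percentile of its array, spots of a probe averaged and outlier spots set missing (at most 1 array per group). A probe was kept (27278 were) if some group had it well above background on each of its 4 arrays, and the probe with the highest mean was used per gene (20056 genes). Symbols came from RefSeq accessions (28223 of 41174 probes matched). The array headers name an older build than GRCm38.p6, so coordinates were matched by symbol.

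The tests used limma 3.58.1 under R 4.3.3 (lmFit, eBayes) with all 16 arrays in 1 fit, 12 residual and 2.19 prior degrees of freedom, two-sided, called at adjusted p under 0.05 over all genes. The 2 age comparisons share arrays with the genotype comparisons. On simulated data of 19731 genes, 58% of genes changed by 1 (log2) and 84% changed by 2 were called in the MRflox age comparison, with 6 false calls. Replicate numbers, which are slide positions, were checked for pairing: same-numbered arrays correlated at −0.313 to 0.359, so they were not taken as pairs. The sample titles number the hearts of a group as replicates, and each was taken as a separate mouse. The 9 genes and the lists were chosen with earlier results of these data known. Named were all 9 genes, up to 4 members of a list per comparison by smallest p, and 5 genes per likeness profile, less items that are not reported here. Genes named for the array that stood apart, Dntt and further called members were chosen after their values were seen. List genes not on the array or not matched: Cd8b1, Ptcra, Tnfsf13, H2-Eb1, Ly6g, Hbb-b1 and Ahsp. The number of arrays limits precision.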

Additional observations from a re-analysis of the deposited data

Results flagged for a closer look

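In 44 sets of 4 arrays (11 probes of the 9 genes in 4 groups) the gap of the highest or lowest array to its neighbour was divided by the range of the set, and 3 exceeded Dixon's 95% critical value. Chance gives about 1 such set in 20. In 2-month cardioMRKO, replicate 4 was the highest for Cd8a (gap ratio 0.897) and for Lck (gap ratio 0.842). In 1-month MRflox, replicate 4 was the lowest for Cd79a, at −6.79 with the others at −5.56 to −5.31 (gap ratio 0.832), and it was the array of that group on which the Cd79a probe was not well above background.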

How the results depend on the processing

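The calls of Jchain with age held in all 17 alternatives that tested it, with limma adjusted p up to 0.0245 in MRflox and 0.0322 in cardioMRKO, as did those of Cd4 and Cd3e in MRflox (up to 0.0205 and 0.0108). The genotype counts of 0 held in every alternative. Counts of called genes with age left their main value of 4 by most with normexp (1 in cardioMRKO) and with probes above background on all 16 arrays (2 in MRflox and 2 in cardioMRKO, with Jchain and Cd79a not tested). Leaving out 1 array of the groups compared gave 3 to 4 in MRflox and 3 to 5 in cardioMRKO, and leaving out replicate 4 of 2-month cardioMRKO, which enters through the shared spread, gave 5 in MRflox. With replicate number as a block the counts were 3 and 4, the block ending the Cd79a call in MRflox (limma adjusted p = 0.0623), and no other call of the 9 genes changed.
Cd79a in MRflox was also lost with normexp (0.38, adjusted p 0.128 by limma), quantile normalization (0.85, 0.125) and no filter (limma 0.0527). It was lost too with both low spike-in arrays left out (limma 0.0686). These are the arrays with the lowest spike-in levels after scaling, replicate 4 of MRflox and 3 of cardioMRKO at 2 months. In cardioMRKO normexp ended the calls of Cd79a (0.26, limma 0.457), Cd4 (0.18, limma 0.415) and Ms4a1 (limma 0.053), and Ms4a1 was also lost with no filter (0.0624) and with only the arrays compared (0.0985). Array weights added Ms4a1 in MRflox (0.0229) and Cd79b in cardioMRKO (0.00763), which was added without the low spike-in arrays too (0.0132).
Signs turned only in differences that were not called. By genotype at 1 month they were Jchain with normexp (−0.000243), and leaving out 1 array gave Jchain −0.464 to 1.13 and Cd4 −0.235 to 0.0439. At 2 months Cd79b turned with normexp (0.0408), array weights (0.123) and without the low spike-in arrays (0.618), and Cd79a without the latter (0.118). Leaving out 1 array gave Cd79a −0.531 to 0.0204, Cd79b −0.68 to 0.43, Ms4a1 −0.50 to 0.69, Cd8a −0.19 to 1.24, Cd3g −0.33 to 0.62 and Lck −0.41 to 0.89. In the change between ages Cd79a turned with normexp (−0.125), Cd4 with quantile normalization (0.0217) and without the low spike-in arrays (0.0502), and Jchain with array weights (−0.21). Leaving out 1 array gave Jchain −0.82 to 0.78 and Cd4 −0.226 to 0.053. With age in MRflox Cd8a turned with normexp (0.0707), the mean of its probes (0.0135) and its other probe (0.36), Cd3g with quantile normalization (−0.0188), and Lck with quantile normalization (−0.16), array weights (−0.17) and without the low spike-in arrays (−0.15). Leaving out 1 array gave Lck −0.18 to 0.28 in MRflox and Cd8a −0.13 to 1.23 in cardioMRKO. The causes were not tested.
Over all genes the counts called ranged from 7 to 242 (main 19) and 96 to 1052 (707) by genotype, 53 to 491 (150) for their difference, and 3339 to 6207 (4543) and 1245 to 5110 (2055) by age. Cd79a, Cd4 and Jchain at 1 month were dim, which limits their folds.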

Other observations

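Neutrophil genes varied between arrays of a group. Of 6 tested, only the lactoferrin gene Ltf was called, upward with age in MRflox (6.54, limma adjusted p = 0.00311), beside 3.31 in cardioMRKO (limma adjusted p = 0.135). Over all genes 16.7% were called upward with age in MRflox. The list mean, over 9 genes on the array, was −1.91 on replicate 4 of 1-month MRflox and −3.95 to −3.44 on the other 3. It was −1.40 on replicate 4 of 2-month MRflox and −5.57 on replicate 3 of 2-month cardioMRKO. The airway mean was the highest of the group on both MRflox arrays, at 2.93 and 5.47, and the lowest of its group on the cardioMRKO array, at 0.19. Replicate 4 of 2-month MRflox and replicate 3 of 2-month cardioMRKO also had the lowest spike-in levels. Their median deviations were −0.804 and −0.545 (log2) from the mean of each spike-in probe over the 16 arrays. These are values after scaling, and that cardioMRKO array had the highest 75th percentile of all arrays, at 1091 units. Its unscaled spike-in signals are thus not shown to be low. The part of the airway and spike-in levels in the neutrophil values was not tested.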
